A study of Homo sapiens with 12 samples.

Results

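GATA2, TAL1, LMO2, ERG, MEIS1 and MECOM are transcription regulators that hold blood cells in a stem and progenitor state and that are used again by acute myeloid leukemia (AML). Open chromatin around these 6 genes was described in KO-52, an AML cell line with mutations in both alleles of the myeloid regulator CEBPA. Every ATAC-seq peak within the GENCODE gene body and 50 kb on each side was taken, and the peaks of the 6 deposited lists were merged wherever they overlapped or adjoined. This gave 285 regions in the windows of the 6 genes, of 355394 regions over the genome.

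KO-52 cells had been transduced with an empty vector (EV), with the full-length CEBPA isoform p42, or with p30, the shorter isoform that lacks the first part of the protein. Each line received DMSO or tunicamycin (Tm), an inhibitor of N-linked glycosylation that stresses the endoplasmic reticulum (ER stress), at 2 µg/mL for 8 h. All 3 lines keep the mutated CEBPA alleles of KO-52, so p42 and p30 were added to the cell's own products, and the methods describe the long-term KO-52 lines as carrying ERT2 fusions and sorted for GFP. Per the methods, cells with such fusions and the EV controls received 4-hydroxytamoxifen, which moves the fusions into the nucleus, on the day before an experiment. ATAC-seq, in which Tn5 transposase cuts accessible DNA, was run in 2 libraries of 50000 cells for each of the 6 conditions, and the 2 libraries were pooled into 1 peak list per condition. There is therefore no replicate spread, no test was possible between lists, and every difference below is a description of 6 lists from 1 cell line. The lists held 187704 to 254239 peaks, the most in p42 with DMSO, and the depth solved from the peak statistics was 22200000 to 30000000 tags.

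In the blood stem cell programme, TAL1 binds E-box sequences with an E-protein partner, and GATA2 binds GATA sequences. LMO2 bridges TAL1 to GATA factors in a complex that also holds LDB1, so these proteins act together. ERG is an ETS factor of stem cells and endothelium, MEIS1 is a homeobox partner of HOXA proteins in leukemia, and MECOM encodes the zinc finger protein EVI1, which is needed for stem cell self-renewal. p42 drives cells toward granulocytes, whereas p30 keeps the DNA-binding part and does not restrain proliferation.

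The 8 stretches that the results turn on are given from hg38, each read 5′ to 3′ on the coding strand of its gene, around the summit of the strongest peak and with no annotated exon. Capitals mark matches to the motifs searched on either strand. A GATA match was AGATAA, or TGATAA, or AGATAG, or else TGATAG, and an E-box was CAGCTG or else CATCTG. A RUNX match was TGTGGT, an ETS match AGGAAGT or else CGGAAGT, a MEIS match TGACAG and an AP-1 match TGACTCA. A C/EBP match was TTGCGCAA or else TTGCACAA, and a C/EBP:ATF match, for a dimer of both factors, TTGCATCA. The stretches shown are the GATA2 intronic element at chr3:128483190-128483390 (minus strand), where an E-box and a GATA match stood 8 bases apart; the canonical ERG start site at chr21:38498623-38498823 (minus), lower in p42; a downstream ERG start site at chr21:38448693-38448893 (minus), higher in p42; the MEIS1 start site at chr2:66434940-66435124 (plus), which had the widest range in DMSO; a MECOM intron at chr3:169431158-169431358 (minus), where p42 was lowest relative to the other lists; an element downstream of LMO2 at chr11:33857942-33858142 (minus), the strongest of its window outside promoters; an ERG intron at chr21:38440036-38440236 (minus), strong in both p42 lists and weak or absent in the others; and a region upstream of ERG at chr21:38693100-38693300 (minus), which held the only C/EBP match of the 285 regions.
GATA2 intron: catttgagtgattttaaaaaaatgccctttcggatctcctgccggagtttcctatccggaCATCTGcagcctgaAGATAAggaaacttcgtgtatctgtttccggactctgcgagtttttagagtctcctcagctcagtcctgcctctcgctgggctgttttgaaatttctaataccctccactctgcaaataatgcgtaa
ERG start site: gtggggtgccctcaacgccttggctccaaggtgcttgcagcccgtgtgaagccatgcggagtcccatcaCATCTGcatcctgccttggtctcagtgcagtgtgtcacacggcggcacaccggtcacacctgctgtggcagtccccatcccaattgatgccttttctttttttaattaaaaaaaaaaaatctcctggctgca
ERG downstream start site: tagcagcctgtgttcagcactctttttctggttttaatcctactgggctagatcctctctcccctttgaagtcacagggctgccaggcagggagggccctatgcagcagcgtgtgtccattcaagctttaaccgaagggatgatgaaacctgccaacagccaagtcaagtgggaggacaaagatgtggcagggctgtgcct
MEIS1 start site: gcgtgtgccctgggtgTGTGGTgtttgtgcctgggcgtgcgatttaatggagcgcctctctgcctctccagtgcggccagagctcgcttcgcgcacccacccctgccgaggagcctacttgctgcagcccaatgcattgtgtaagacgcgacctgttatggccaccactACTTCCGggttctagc
MECOM intron: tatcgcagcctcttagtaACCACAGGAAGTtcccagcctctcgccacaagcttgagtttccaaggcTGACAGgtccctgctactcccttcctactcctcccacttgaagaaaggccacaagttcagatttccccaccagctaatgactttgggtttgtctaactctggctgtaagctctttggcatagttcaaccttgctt
LMO2 downstream: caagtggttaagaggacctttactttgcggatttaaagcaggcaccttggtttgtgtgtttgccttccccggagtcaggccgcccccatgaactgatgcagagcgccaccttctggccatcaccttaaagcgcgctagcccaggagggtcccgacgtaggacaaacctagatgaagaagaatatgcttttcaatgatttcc
ERG intron: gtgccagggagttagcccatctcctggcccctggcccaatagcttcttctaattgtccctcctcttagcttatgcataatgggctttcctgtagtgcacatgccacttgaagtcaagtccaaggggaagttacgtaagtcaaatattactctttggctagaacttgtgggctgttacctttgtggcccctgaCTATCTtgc
ERG upstream: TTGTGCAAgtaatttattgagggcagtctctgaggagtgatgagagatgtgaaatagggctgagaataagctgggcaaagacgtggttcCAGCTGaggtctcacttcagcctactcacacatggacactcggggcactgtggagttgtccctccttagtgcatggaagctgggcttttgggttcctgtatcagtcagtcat

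All 6 genes had a peak at the canonical start site in all 6 lists, as did 70.6% of 20007 protein-coding genes. The canonical start sites of the 6 genes thus had a peak in every line and under ER stress, and what varied was their rank. This did not hold for all other annotated start sites. One of MECOM, 530 kb into the gene, had no peak in either p30 list. At start sites 516 kb into MECOM, 1 region had a peak only in p42 with DMSO (9 tags at the summit). Another had a peak only in EV with DMSO (6 tags). The cells were measured in bulk, so fewer cells with an open site and less opening per cell cannot be told apart. Strength is given as the percentile of −log10 q (the peak caller's significance) within a list, where 100 is the strongest peak, beside the number of tags at the summit. Where more than 1 region lay within 1000 bp of the start, the strongest in each list was taken. Peak heights were not normalized between lists, so percentiles are compared and tags are given as counts. The percentile of the canonical start ranged over 20 points or more between the 3 lines in DMSO for 3 of the 6 genes (MEIS1, GATA2 and ERG), against 10.1% of the 14435 protein-coding start sites open in all 3 DMSO lists. This count rests on the ranking by −log10 q: ranked by tags, the difference between p42 and p30 at the GATA2 start region was 13.0 points, and that of p42 minus EV at the ERG start was -14.6 points. In every list all 6 start sites ranked below the median canonical start site, which lay between 88.6 and 90.9. The start sites behind the 10.1% were not split by rank, so start sites of similar rank were not compared. Over all regions with a peak in both p42 and p30 with DMSO, 18.2% ranked at least 20 points higher in p42 and 8.23% in p30.

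**Figure D1:**
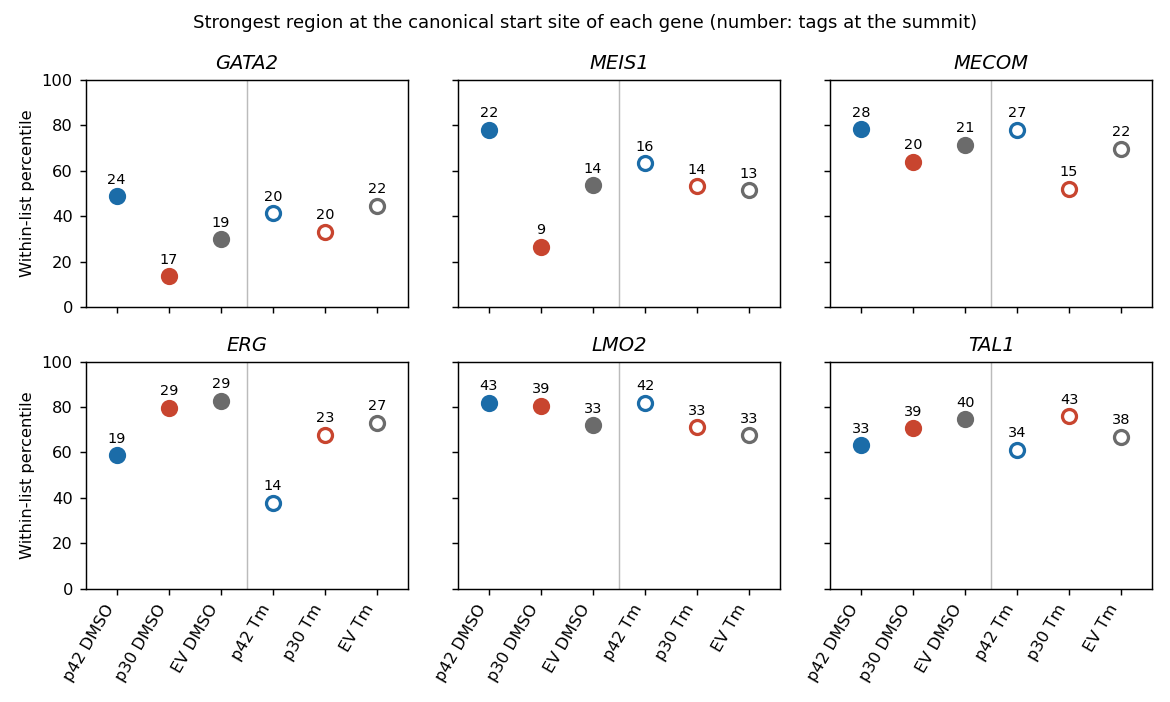
Within-list percentile (y axis, 0 to 100) of the strongest region at the canonical start site of each of the 6 genes in each of the 6 lists (x axis), with filled points for DMSO, open points for tunicamycin, blue for p42, red for p30 and grey for EV, where the number over a point is the tag count at the summit. MEIS1 was at 26.4 in p30 with DMSO against 77.9 in p42, and ERG was lowest in p42 in both treatments, at 58.7 and 37.9.

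At the MEIS1 start site the percentile in DMSO was 77.9 in p42, 53.5 in EV and 26.4 in p30, with 22, 14 and 9 tags. Under tunicamycin p42 ranked 63.3, p30 53.2 and EV 51.3, with 16, 14 and 13 tags. The order of the lines in DMSO, with p42 high and p30 low, was thus wider than in tunicamycin, where p30 and EV lay within 2 points of each other. These values came from different regions, since the strongest peak of EV with DMSO lay 866 bp and that of p30 with DMSO 540 bp upstream of the start. At the region nearest to the start, with its summit 85 bp upstream, the percentile in DMSO came to 77.9 in p42, 13.7 in p30 and 41.0 in EV (22, 8 and 12 tags), and both p42 lists lay above the other 4.

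The GATA2 start site ranked 48.7 in p42, 29.8 in EV and 13.6 in p30 with DMSO, from 24, 19 and 17 tags. In tunicamycin the values were 41.2, 44.5 and 33.2 in the same order of lines, so p42 no longer led. Ranked by fold enrichment, the p42 start region lay 6.7 points above p30 in DMSO, against 35.1 points by −log10 q. A region 483 bp upstream of the GATA2 start was called in all 3 tunicamycin lists (14, 15 and 17 tags in p42, p30 and EV) and in no DMSO list. Its percentiles were only 4.9, 11.6 and 15.0, so these were among the weaker peaks called.

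The ERG start site had the opposite order. In DMSO its percentile was 82.7 in EV, 79.5 in p30 and 58.7 in p42, with 29, 29 and 19 tags, and in tunicamycin it was 73.1, 67.9 and 37.9, with 27, 23 and 14 tags. Both p42 lists lay below the other 4 lists, which did not overlap with them. A start site of shorter ERG transcripts, 49.7 kb into the gene, went the other way: its percentile in DMSO came to 72.9 in p42, 33.4 in p30 and 34.2 in EV (15, 7 and 7 tags), and in tunicamycin 80.2, 53.5 and 59.2 (18, 10 and 11 tags). The upstream-most ERG start site, 163 kb upstream of the canonical one, was also highest in p42 with DMSO, at 67.6 against 14.5 in p30 and 38.1 in EV, but in tunicamycin EV led with 61.9 against 53.3 in p42 and 47.5 in p30.

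The other 3 start sites ranged over less than 20 points in DMSO, while in tunicamycin MECOM had a wider range than GATA2 or MEIS1. For LMO2 the percentile came to 81.7 in p42, 80.5 in p30 and 72.0 in EV with DMSO (43, 39 and 33 tags), and 81.7, 71.0 and 67.5 with tunicamycin (42, 33 and 33 tags). For TAL1 it was 63.2, 70.6 and 74.6 in DMSO (33, 39 and 40 tags) and 61.1, 75.9 and 66.8 in tunicamycin (34, 43 and 38 tags), so p42 was lowest both times. The MECOM start region, 1.4 kb into the gene, ranked 78.2 in p42, 63.9 in p30 and 71.5 in EV with DMSO (28, 20 and 21 tags) and 77.9, 51.9 and 69.5 with tunicamycin (27, 15 and 22 tags), so p30 was lowest both times.

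The windows differed in the share of their regions called in all 6 lists. TAL1 and LMO2 had the most shared chromatin: 15 of 24 TAL1 regions (62.5%) and 21 of 37 LMO2 regions (56.8%) had a peak in all 6 lists, against 32.2% of all regions. GATA2 had 12 of 35 (34.3%), ERG 23 of 72 (31.9%), MECOM 18 of 92 (19.6%) and MEIS1 3 of 25 (12%). Peak strength differed too. The median percentile in p42 with DMSO was 66.2 in LMO2, 64.6 in TAL1, 55.9 in ERG, 41.9 in GATA2, and 33.9 in both MECOM and MEIS1. The shares were not separated from peak strength. The GATA2 window was also crowded, with 30.8 regions per 100 kb, more than 97.5% of the windows of 20033 protein-coding genes cut in the same way (median 16.3). LMO2 had 27.7 per 100 kb (above 93.9% of windows), TAL1 20.7, ERG 18.9, MECOM 13.5 and MEIS1 10.4. The GATA2 window also holds DNAJB8, and the TAL1 window PDZK1IP1 and STIL, so a region there cannot be assigned to the regulator by position alone.

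**Figure D2:**
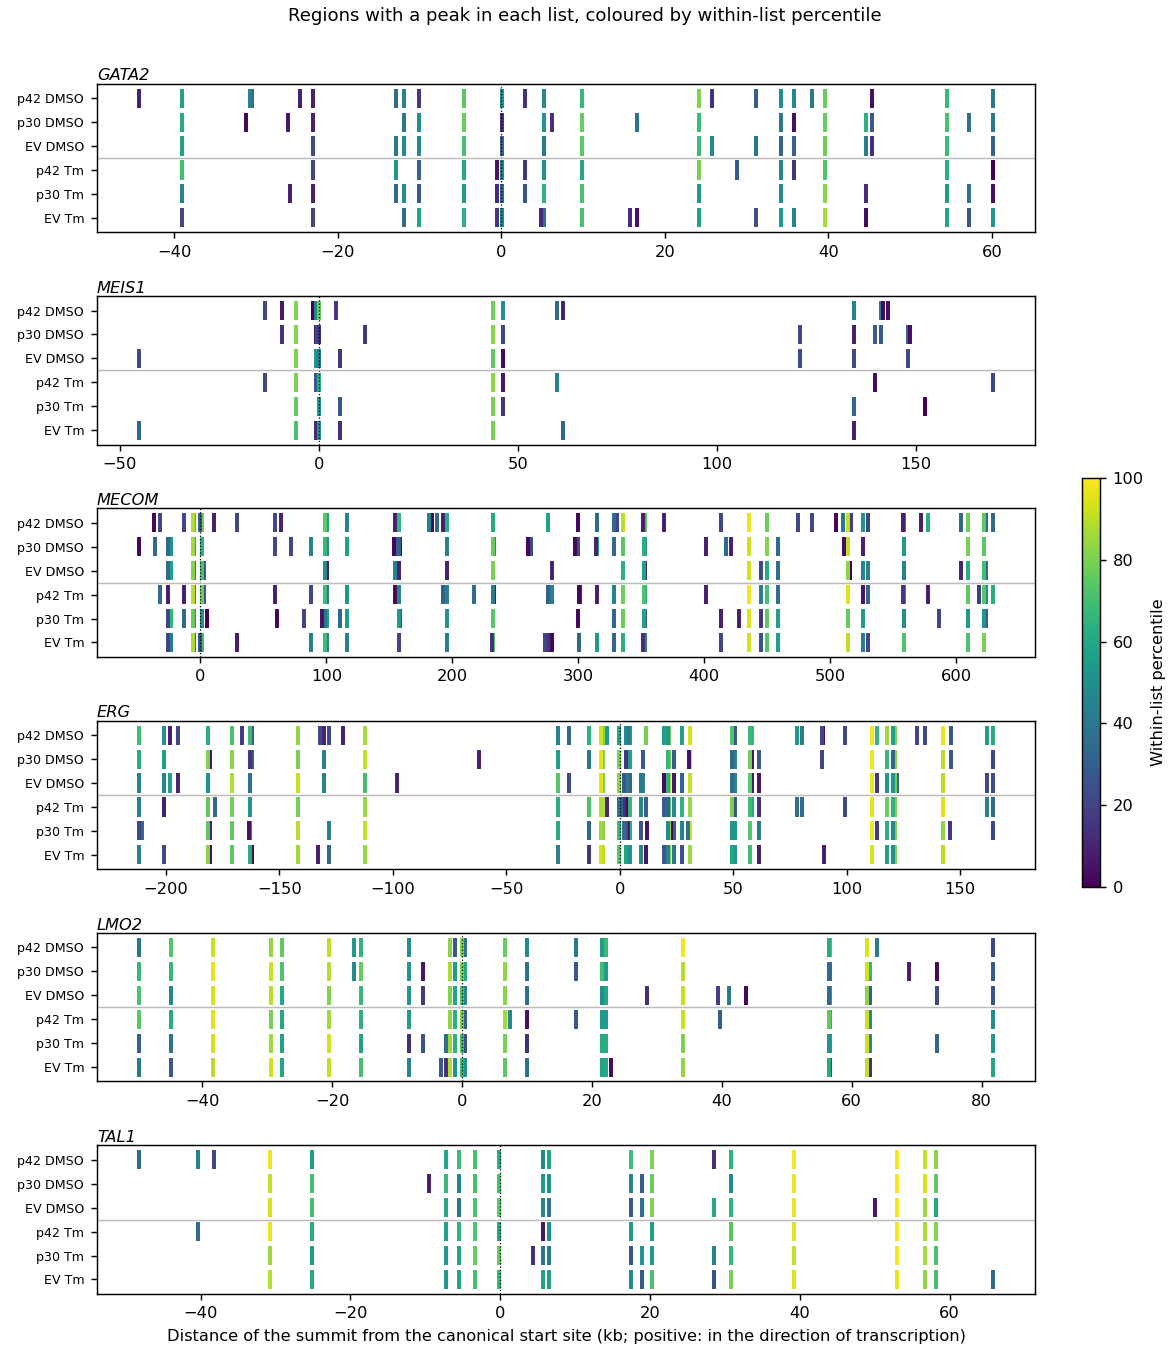
Position of each of the 285 regions (x axis, distance of the summit from the canonical start site in kb, positive in the direction of transcription) in each of the 6 lists (rows), coloured by within-list percentile from 0 (dark) to 100 (yellow). A mark is drawn only where the list has a peak, so columns of 6 marks are the 92 regions shared by all lists, most dense around TAL1 and LMO2.

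Each gene had a strong region outside promoters that was open in all 6 lists. One of them, 39.2 kb downstream of the TAL1 start and beyond the end of the gene, ranked 98.7 in p42, 96.8 in p30 and 97.3 in EV with DMSO (46, 40 and 38 tags) and 95.9, 90.5 and 95.1 with tunicamycin (37, 30 and 34 tags). A region in an ERG intron, 111 kb downstream of the start, had the same highest value of 98.7 in p42 with DMSO and a lowest value of 94.2. Both ranked above 90 in every list.

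Downstream of LMO2, 34 kb from its start, the percentile came to 98.4 in p42, 88.7 in p30 and 91.4 in EV with DMSO, with 40, 24 and 25 tags. With tunicamycin it was 92.0, 80.4 and 83.3, with 28, 18 and 21 tags. It was the highest in p42 within each treatment. In the MECOM intron 436 kb downstream of the start the range over the 6 lists was 92.7 to 98.5, and at the MEIS1 intronic region 43.8 kb downstream it was 75.5 to 83.9. The GATA2 region 39.5 kb downstream ranged from 72.3 to 86.6.

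The GATA2 intronic element, 9.91 kb into the gene, lies in the intron that holds a well-studied GATA2 enhancer of blood stem cells, and its E-box and GATA matches, CATCTG and AGATAA, are those printed in capitals. A start site of a GATA2 transcript is annotated within 1000 bp of it. It was open in all 6 lists at chr3:128482916-128483540, with 27 tags in p42, 34 in p30 and 33 in EV with DMSO and 24, 32 and 33 with tunicamycin. The percentiles were 66.8, 76.7 and 74.9 in DMSO and 59.5, 71.4 and 70.5 in tunicamycin. Both p42 lists were below the other 4, while at the GATA2 start site p42 was the highest of the lines in DMSO.

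Presence was then compared between lists. Between p42 and p30 in DMSO, 71 regions had a peak in p42 only, 42 in p30 only and 118 in both, of 231 in either. The share in p42 only was 30.7%, against 30.8% of all regions, and the share in p30 only was 18.2%, against 14.5%. Of the regions in 1 list only, 62.8% were in p42 (95% Wilson interval 53.6 to 71.2), and of all regions 68%. The share over all regions lay inside the interval of the windows. The intervals count regions as if they were independent, which neighbouring regions are not.

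When every list was cut to the same 187339 strongest peaks the share in p42 was 50%, beside 51.1% over all regions, a setting that by itself brings the shares of all regions close to 50%. With the threshold scaled to the shallowest list it was 64.4% (all regions 67.9%), and with −log10 q of at least 5 it was 69.4% (all regions 69.2%).

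Single genes varied around this tilt. In ERG 19 regions were in p42 only and 6 in p30 only, and in MECOM 31 and 18. In GATA2 the counts were 9 and 6, in MEIS1 7 and 6, and in TAL1 4 and 2. LMO2 alone of the 6 had fewer regions in p42 only (1) than in p30 only (4), which is 20% with an interval of 3.62 to 62.4 that lies below the 68% of all regions and rests on 5 regions. Where both lists had a peak, the percentile was at least 20 points higher in p42 at 20 of 118 regions (16.9%, all regions 18.2%) and at least 20 points higher in p30 at 9 (7.63%, all regions 8.23%).

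The strongest regions of 1 list only were in ERG for p42. A region 11.5 kb into ERG ranked 79.0 in p42 with DMSO (22 tags), was absent from p30 and EV with DMSO, and after tunicamycin ranked 29.0 in p42 and 5.2 in EV (9 and 7 tags). A region 114 kb into ERG ranked 66.7 in p42 (19 tags) and 16.0 in EV (9 tags) with DMSO and appeared in p30 with tunicamycin at 16.1 (9 tags). A MECOM intronic region 578 kb downstream of the start was found only in p42 with DMSO, at 62.0 (11 tags). The ERG intron 58.3 kb from the start, printed above, had a peak in both p42 lists with 14 and 12 tags (percentiles 67.3 and 60.9), and in p30 and EV it had 5 tags each in DMSO (4.7 and 5.1) and none in tunicamycin. Of these regions, the one 11.5 kb into ERG had the most tags in p42.

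The strongest regions of p30 without a p42 peak in DMSO lay in other windows. One 62.8 kb downstream of the LMO2 start ranked 65.9 in p30 and 29.7 in EV (14 and 8 tags), but p42 had it in tunicamycin at 47.7 (10 tags). One 44.6 kb downstream of the GATA2 start, near DNAJB8, ranked 64.0 in p30 and 41.6 in EV (16 and 11 tags), and 12 and 2.5 with tunicamycin (7 and 6 tags). One 23.4 kb upstream of MECOM ranked 50.5 in p30 and 57.1 in EV with DMSO (9 and 10 tags) and 65.4 and 42.4 with tunicamycin (12 and 8 tags). The last 2 had no peak in either p42 list.

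Against EV in DMSO, 72 regions were in p42 only and 28 in EV only, which is 33.2% and 12.9% of the 217 in either, beside 35.4% and 11.2% of all regions. The share in p42 among regions of 1 list only was 72.0% (62.5 to 79.9), and 76.0% over all regions. With lists of equal length it was 44.1% (32.9 to 55.9), which turned the direction, beside 51.6% over all regions. MECOM had 34 against 7 and LMO2 3 against 7. Where both lists had a peak, p42 was at least 20 points higher at 28 of 117 regions (23.9%, all regions 22.8%) and EV at 10 (8.55%, all regions 6.60%). The largest gains over EV were in MECOM, 353 kb downstream of the start, at 75 in p42 and 9.4 in EV (15 and 5 tags), and in the ERG intron 58.3 kb from the start.

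p30 differed less from EV. In DMSO 44 regions were in p30 only (23.3%, all regions 22.4%) and 29 in EV only (15.3%, all regions 13.7%), and 60.3% of these were in p30 (48.8 to 70.7), beside 62.1% over all regions. With lists of equal length the share was 43.9% (32.6 to 55.9), beside 50.7%. With −log10 q of at least 5 it was 43.8% (28.2 to 60.7), an interval below the 62.3% of all regions. The direction turned in both. At equal length 29 regions were in p30 only and 37 in EV only, beside 30 and 38 for p42 against EV. The smaller difference of p30 was thus not seen there. ERG had 8 in p30 only and 11 in EV only, and MECOM 21 and 7. A region downstream of the TAL1 gene, 28.5 kb from its start, was absent from p30 with DMSO and ranked 59.8 in EV and 13.2 in p42 (12 and 6 tags), and p30 had it at 45.2 (9 tags) with tunicamycin.

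**Figure D3:**
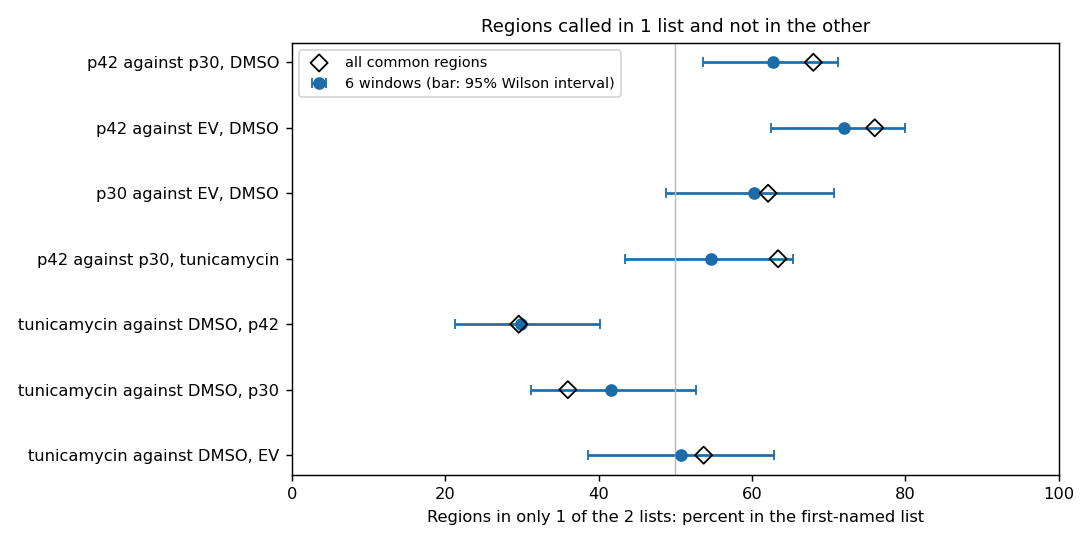
Of the regions called in 1 of 2 lists and not in the other, the percent in the first-named list (x axis) for each of the 7 comparisons (y axis), as blue points with 95% Wilson intervals for the 6 windows and as black diamonds for all common regions. The diamond lies inside the interval of the windows in all 7 comparisons, as at 68 against 62.8 for p42 and p30 in DMSO.

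Under tunicamycin the tilt between p42 and p30 was smaller around these genes: 41 regions were in p42 only (21.8%, all regions 26.1%) and 34 in p30 only (18.1%, all regions 15.1%). This is 54.7% in p42 (43.4 to 65.4) beside 63.4% over all regions, which the interval holds, and 38.7% with lists of equal length, beside 48.4%. Without the MECOM window it was 48.9%. MECOM had 19 against 11, while ERG had 11 against 10, GATA2 2 against 4 and TAL1 1 against 3.

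Tunicamycin itself was compared with DMSO in each line. In p42, 26 regions were in tunicamycin only (12.1%, all regions 11.6%) and 61 in DMSO only (28.4%, all regions 27.5%). The percentile was at least 20 points higher in tunicamycin at 6 of 128 shared regions (4.69%, all regions 5.45%) and at least 20 points lower at 23 (18.0%, all regions 15.9%). ERG held 10 of these 23 and MECOM 7. The p42 list with DMSO had the greatest depth of the 6, at 30000000 tags against 25400000 with tunicamycin. With lists of equal length the share of 1-list regions in tunicamycin was 43.6% in p42, beside 43.3% over all regions. It was 57.4% (45.5 to 68.4) in p30, beside 46.8%, so that the direction in p30 turned. LMO2 alone of the 6 windows had more regions in tunicamycin only (3) than in DMSO only (2) in p42. The interval of this share, 23.1 to 88.2, rests on these few regions and holds the 29.6% of all regions. The region 1.10 kb upstream of the LMO2 start rose in p42 from 27.2 to 63.3 (21 and 30 tags).

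In p30, 32 regions were in tunicamycin only (16.7%, all regions 13.2%) and 45 in DMSO only (23.4%, all regions 23.6%). In EV the counts were 31 (17.6%, all regions 18.8%) and 30 (17%, all regions 16.3%). The share of 1-list regions in tunicamycin was 29.9% in p42 (21.3 to 40.2), 41.6% in p30 (31.2 to 52.7) and 50.8% in EV (38.6 to 62.9), beside 29.6%, 36.0% and 53.7% over all regions. In each line the share over all regions lay inside the interval of the windows. The MEIS1 region 85 bp upstream of its start rose in p30 from 13.7 to 53.2 (8 and 14 tags), and fell in p42 from 77.9 to 63.3 (22 and 16 tags), which brought the lines closer together.

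Regions that followed a line in both treatments were rare. Peaks of the p42 line alone, in DMSO and in tunicamycin, were found at 11 regions (3.86%, all regions 4.58%): 4 in MECOM, 4 in ERG, 2 in MEIS1 and 1 in TAL1. The strongest were in MECOM, 629 kb downstream of the start (33.9 in DMSO and 62.3 in tunicamycin, 7 and 11 tags), and in ERG, 78.0 kb downstream (54.6 and 34, 11 and 7 tags) and 5.73 kb upstream (54.6 and 11.7, 15 and 8 tags). Both p30 lists and no other held 1 region (0.351%, all regions 0.618%), in MECOM, and both EV lists and no other 1 (all regions 0.558%), in MEIS1.

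No region had peaks in all p42 and p30 lists and in no EV list, a pattern of 0.626% of all regions. Both p30 and both EV lists without p42 held 3 (1.05%, all regions 0.802%), the GATA2 and MECOM regions given above and one 18.9 kb downstream of the TAL1 start, with 13 tags in p30 and 14 in EV in DMSO and 16 and 13 in tunicamycin. Both p42 and both EV lists without p30 held 2 (0.702%, all regions 0.462%), in ERG and MECOM. The GATA2 region 483 bp upstream of the start was the only one in all tunicamycin lists and no DMSO list (0.351%, all regions 0.202%). It ranked no higher than 15.0 in any of them. In all DMSO lists and no tunicamycin list were 2 regions, in ERG and GATA2 (0.702%, all regions 0.506%).

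The 92 regions open in all 6 lists allow a comparison of strength among regions where every list had a called peak. Regions missing from any list, such as the ERG intron 58.3 kb from the start, are left out of it. Percentiles were ranked anew among the 114533 such regions of the genome, which puts the 6 lists on lists of equal length. Both p42 lists lay above the other 4 lists at 12 of the 92 regions (13.0%, all regions 15.3%) and below them at 14 (15.2%, all regions 16.2%). Both p30 lists lay above at 6 (6.52%, all regions 7.44%) and below at 2 (2.17%, all regions 7.58%), and both EV lists above at 1 (1.09%, all regions 7.80%) and below at 7 (7.61%, all regions 7.26%). In these windows as in the genome the p42 line stood apart more often than p30 or EV, and in both directions. The DMSO and tunicamycin lists of a line are different treatments and not replicates.

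**Figure D4:**
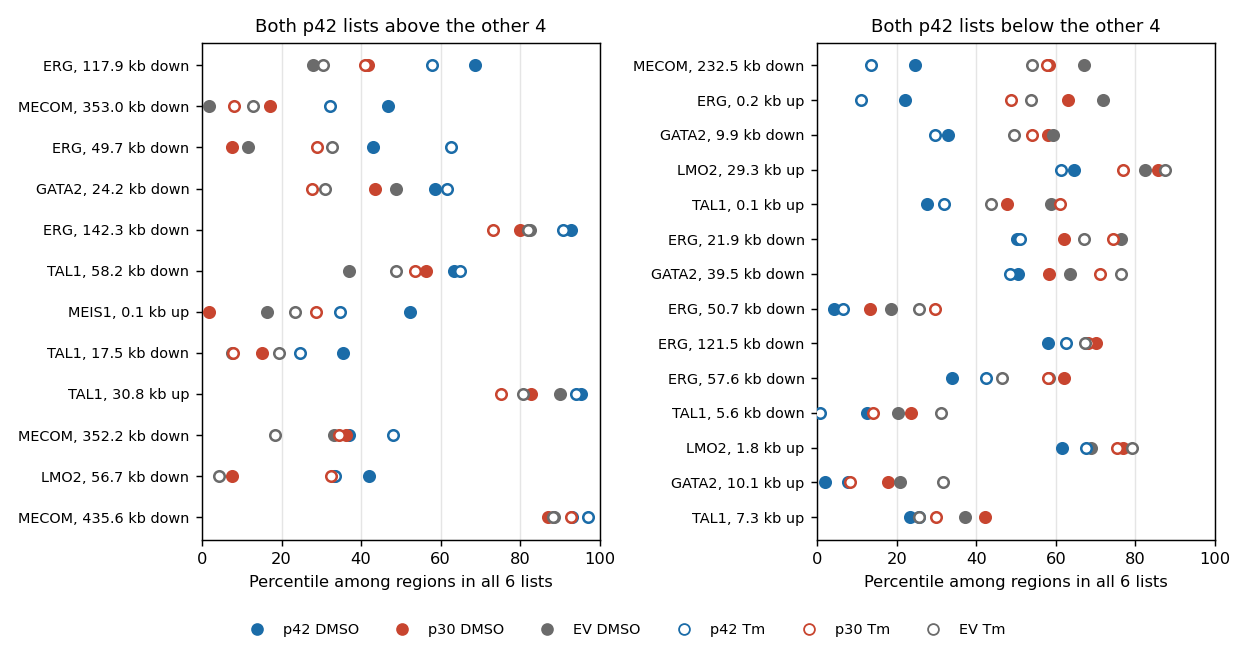
Percentile among the 114533 regions open in all 6 lists (x axis) for the 12 regions of the 6 windows where both p42 lists lay above the other 4 lists (left) and the 14 where both lay below (right), in rows named by gene and distance from the canonical start in kb. Filled points are DMSO and open points tunicamycin, with p42 in blue, p30 in red and EV in grey, and the widest gaps are on the right, 29.5 points in MECOM and 26.6 at the ERG start site.

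The regions lower in p42 lay in the windows of 5 of the 6 genes, with 5 in ERG, 3 in GATA2, 3 in TAL1, 2 in LMO2 and 1 in MECOM. The GATA2 region 39.5 kb downstream is nearest to the start of DNAJB8, and the TAL1 region 5.64 kb downstream is at a promoter of another gene. In the MECOM intron 232 kb downstream of the start, p42 had 11 and 8 tags (DMSO and tunicamycin), p30 17 and 16, and EV 18 and 17. Summed over the lists and divided by the depth, p42 had 0.49 times the tags of the other lines (exact 95% interval 0.28 to 0.82, counting error only), where the median of all 114533 regions was 0.95. This stretch carries a RUNX match that overlaps an ETS match, and a MEIS match, but no GATA, E-box or C/EBP match.

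At the ERG start site the same ratio was 0.53 (0.35 to 0.80), from 33 tags in p42 and 108 in the other 4 lists. At the GATA2 intronic element it was 0.68 (0.48 to 0.94), at the TAL1 start site 0.73 (0.54 to 0.98), 29.3 kb upstream of LMO2 0.69 (0.48 to 0.99), and in an ERG intron 21.9 kb from the start 0.69 (0.50 to 0.96). The intervals in MECOM, at the ERG start and at the GATA2 element lay below the median of 0.95. The regions were picked for this separation, so the intervals describe counting error and are no test.

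Of the 12 regions higher in p42, 3 were in ERG, 3 in MECOM, 3 in TAL1, and 1 each in GATA2, MEIS1 and LMO2. The ratio was highest at the ERG start site 49.7 kb into the gene, 1.65 (0.99 to 2.73), from 33 tags in p42 and 35 in the other lists. It was 1.57 (0.89 to 2.76) in MECOM 353 kb from the start, 1.41 (0.90 to 2.22) at the MEIS1 start and 1.39 (0.94 to 2.04) near the 3′ end of ERG, 118 kb from the start. Here too the intervals describe counting error at regions picked for their separation.

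Of the 23 ERG regions open in all 6 lists, both p42 lists lay below the other lists at 5 and above them at 3. Over the genome the shares of such regions were 16.2% below and 15.3% above, so the presence of both directions was not particular to ERG. Whether the ERG counts differed from these shares was not tested. The canonical start and the intronic start 49.7 kb downstream changed places in rank, with 58.7 and 72.9 in p42 with DMSO, 79.5 and 33.4 in p30, and 82.7 and 34.2 in EV. With tunicamycin the pairs were 37.9 and 80.2 in p42, 67.9 and 53.5 in p30, and 73.1 and 59.2 in EV. The exchange in p42 with DMSO rests on −log10 q. By tags the canonical start stayed ahead there, with 19 against 15. It fell behind only in p42 with tunicamycin, with 14 against 18 tags.

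Motifs were counted within 100 bp of the summit. Only the exact letters given above were searched, so a region without a match may still hold another form of the site. A C/EBP match was present in 1 of the 285 regions (0.351%, Wilson interval 0.0620 to 1.96), beside 1.58% of all regions, and a C/EBP:ATF match in 1 (0.351%, all regions 1.25%). Over the genome C/EBP matches were in 6.01% of the 16276 regions open in both p42 lists only, in 3.18% of those in p42 and not p30 with DMSO and in 0.535% of those in p30 and not p42. In the 6 windows they were in 0 of the 11 regions of both p42 lists only (Wilson interval up to 25.9%) and in 1 of 71 in p42 and not p30. The one C/EBP match lay 195 kb upstream of the canonical ERG start in a region with 6 tags in p42 and 5 in EV with DMSO.

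GATA matches were in 81 regions (28.4%, interval 23.5 to 33.9, all regions 29.8%), E-boxes in 77 (27.0%, all regions 28.3%), RUNX matches in 66 (23.2%, all regions 22.5%), ETS matches in 48 (16.8%, all regions 16.4%), MEIS matches in 48 (16.8%, all regions 16.1%) and AP-1 matches in 26 (9.12%, all regions 9.48%). The windows of these regulators thus held the letters that their own proteins bind at shares close to those of all open regions. The GATA2 window had E-boxes in 18 of 35 regions (51.4%, interval 35.6 to 67.0) and GATA matches in 3 (8.57%, 2.96 to 22.4). An E-box and a GATA match 6 to 12 bases apart were in 2 regions (0.702%, all regions 0.896%), the GATA2 intronic element and an exonic MEIS1 region 5.16 kb downstream of the start, which had 7 or 8 tags in 3 lists.

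Of 24 other genes of the same programme, 23 had a peak at the canonical start in all 6 lists. GATA1, the erythroid and megakaryocytic relative of GATA2, had none in any list. Between the lines in DMSO the start sites of LDB1 and LYL1, partners in the TAL1 complex or close to it, ranged over 10.4 and 11.2 points, beside a median of 5.4 points over all canonical start sites. Those of TCF3, TCF12 and LMO4, also among the 24 genes, ranged over 3.5, 8.8 and 3.6 points. CD34 and KIT, which mark blood progenitors, were open in all 6 lists. The genes whose percentile ranged over 20 points or more included HOXA9, HOXA10 and PRDM16. HOXA10, the homeobox gene next to HOXA9, ranked 58.8 in p42, 45.5 in p30 and 18.2 in EV with DMSO (27, 24 and 18 tags), and HOXA9 53.4, 52.5 and 29.4 (34, 32 and 26 tags), so EV was lowest at both. In tunicamycin EV ranked 63.8 and 53.0 at these start sites. PRDM16, the closest relative of MECOM, ranked 65.1, 39.0 and 54.7 (22, 15 and 17 tags). This is the order of the lines in DMSO at MECOM, but also at MEIS1 and GATA2. In tunicamycin PRDM16 ranked 38.7, 33.2 and 57.3, so EV led there, unlike at MECOM.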

How the data were processed

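ATAC-seq of 12 KO-52 libraries, 2 for each of 6 conditions, was deposited by the authors as 1 merged narrowPeak list per condition on hg38. Per the study's methods and the submitters' processing notes, the authors used Trim Galore 0.6.6 for trimming, Bowtie2 2.4.4 for alignment, Picard against duplicate reads and MACS2 for peak calling. The deposited values are the fold enrichment (a ratio of summit to local background), −log10 p and −log10 q values, a display score that was not used, and the summit offset. A Tn5 shift was not given in the sources used here.

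Peaks of the 6 lists were merged where they overlapped or adjoined. Whole tags at the summit were solved from the fold and −log10 p for 100% of peaks (tolerance 0.001), and depth from the lowest background, for a genome of 2700000000 bp. Tags ran from 4 upward with a median of 10 or 11, so most regions carry wide counting error. Windows, start sites (within 1000 bp) and exons came from GENCODE 44. Named regions were each gene's start sites, the strongest region outside promoters of each window, the 3 strongest regions of each line-specific pattern, and, for each comparison and direction, the 3 strongest in 1 list only and the 3 with the largest difference in percentile. Other programme genes were named where a start site lacked a peak in any list or ranged over at least 20 points in DMSO, except 1 that is not reported here. The rest were named after their values were seen. Intervals are 95% Wilson or exact and cover counting error only. The members and lists were chosen with earlier results of these data known, and the comparison of each line with the other 4 lists was added after the data were seen. The steps were tested on simulated data. Python 3.11.15, numpy 2.4.6, pandas 2.3.3, scipy 1.17.1 and matplotlib 3.10.9 were used.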

Additional observations from a re-analysis of the deposited data

How the results depend on the processing

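No paired analysis was possible because the replicates were pooled into 1 list per condition, and for the same reason no replicate could be left out. Of 112 recomputed shares of 1-list regions, 11 crossed 50%, of which 5 were for tunicamycin in EV, where the share was 50.8% and ran from 41.9% to 60.9%. With the same number of peaks in every list (187339), the share in the first-named list was 50% for p42 against p30 in DMSO and 43.6% for tunicamycin in p42, and it turned direction to 44.1% for p42 against EV in DMSO, 43.9% for p30 against EV in DMSO, 38.7% for p42 against p30 in tunicamycin and 57.4% for tunicamycin in p30. For p30 against EV in DMSO, −log10 q of at least 5 gave 43.8% (all regions 62.3%) and of at least 10 gave 86.7% (all regions 65.1%), and for tunicamycin in p30 at least 10 gave 24.0% (all regions 36.2%). Of 89 differences of named regions, 5 changed sign when ranked by fold enrichment and 4 by tags, and 16 of the 75 that could be recomputed with lists of equal length. None of the differences of 20 points or more changed sign, and those that did were at most 10.7 points. The limit of 20 points was crossed by 6, 13 and 12 of them. Both p42 lists lay above the other 4 at 12 regions ranked by tags, 12 by fold enrichment and 8 by tags divided by depth, and below at 16, 14 and 21.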
